A study of Mus musculus with 22 samples.

Results

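H3K27me3 was read at 56 mouse genes that encode transcription factors, and the Eya co-activators that work with them, of mesoderm and other non-neural lineages. The genes cover heart and pharynx, limb and face, somite and muscle, gut, epithelium and lens, blood, and kidney, gonad, thyroid and placodes. Members were chosen by name, with earlier results of these data known. Every row of the deposited peak table whose assigned gene was one of them was taken. Contrasts of these genes with all genes in level, width and promoter peaks are therefore descriptions of a chosen list. Of the 56 genes, 52 had at least 1 peak, and they held 86 of the 19034 peaks in the table. After a filter on low counts all 52 genes and 79 of the 86 peaks were tested.

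The samples were retinas of C57BL/6 embryos at embryonic day 18.5, 5 conditional knockouts (cKO) and 5 controls. All cKO animals were labelled Jarid2 fl/fl; Rx-cre. Control replicate 1 was labelled Jarid2 fl/+; Rx-cre, control replicates 2, 4 and 5 Jarid2 fl/+ and control replicate 3 Jarid2 fl/fl, so 1 control carried Cre and 1 was homozygous for the floxed allele. The protocol text differs from these labels: it names the driver Rax-CreERT2, a Cre activated by tamoxifen and driven from the gene of the eye field factor Rax, and gives all controls as fl/fl. Pregnant females received tamoxifen at 75 µg per g at E10.5. A sample was the pooled retinas of 1 animal. Replicates 1 and 2 of both groups formed batch 1, from a single litter, and replicates 3 to 5 formed batch 2, all male. In batch 1, cKO replicate 1 and control replicate 2 were female. The table holds H3K27me3 reads only, so deletion of Jarid2 in each animal was not checked here.

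H3K27me3 is trimethylation of lysine 27 of histone H3. It is placed by Polycomb repressive complex 2, whose catalytic subunit is Ezh2 or Ezh1, and it marks genes that are kept silent, above all regulators of lineages that a cell does not take. Jarid2 is an accessory subunit that binds nucleosomes and helps to bring the complex to its targets, which in mammals lie mostly at CpG-rich promoters. In neural tissue, the master regulators of heart, muscle, limb and blood are textbook targets of the mark.

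Promoter sequence, 250 bases before to 50 after the annotated start, was available from RefSeq (GRCm38.p6, the assembly of mm10) for 38 of the 56 genes. The motif searched was CG, which reads the same on both strands. These 300-base windows held a median of 17.5 CG, against 7 over 27025 RefSeq promoters, of which 94.2% held at least 1 CG. A peak of the table covered or touched 35 of the 38 windows (92.1%), against 14.2% of all promoters. The 3 windows outside any peak were those of Myf5, Tbx10 and Tbx6, which held 3, 4 and 7 CG. Sequences are given for 3 promoters inside a peak, chosen for their differing CG content, and for 2 of those without. CG is in capitals, and each is written 5′ to 3′ on the strand of its gene. Bnc1, at chr7:81992250-81992549 on the minus strand, held 50 CG, and Barx1 held as many. Tbx20, at chr9:24774254-24774553 on the minus strand, held 26. Prrx1, at chr1:163313601-163313900 on the minus strand, held 6. Myf5, at chr10:107486085-107486384 on the minus strand, held 3, and Tbx6, at chr7:126781233-126781532 on the plus strand, held 7.
Bnc1: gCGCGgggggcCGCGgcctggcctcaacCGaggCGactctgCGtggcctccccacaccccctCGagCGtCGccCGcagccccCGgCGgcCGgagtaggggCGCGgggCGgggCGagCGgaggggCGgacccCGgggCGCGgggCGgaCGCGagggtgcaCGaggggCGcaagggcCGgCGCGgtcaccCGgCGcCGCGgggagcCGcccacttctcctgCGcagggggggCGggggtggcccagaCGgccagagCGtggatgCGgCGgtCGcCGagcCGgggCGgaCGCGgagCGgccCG
Tbx20: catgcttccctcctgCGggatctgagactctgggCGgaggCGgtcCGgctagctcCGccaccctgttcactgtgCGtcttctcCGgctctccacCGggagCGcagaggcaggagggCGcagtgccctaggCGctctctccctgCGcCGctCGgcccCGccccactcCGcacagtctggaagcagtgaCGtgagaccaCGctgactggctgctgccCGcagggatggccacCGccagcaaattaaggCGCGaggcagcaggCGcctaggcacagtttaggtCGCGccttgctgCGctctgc
Prrx1: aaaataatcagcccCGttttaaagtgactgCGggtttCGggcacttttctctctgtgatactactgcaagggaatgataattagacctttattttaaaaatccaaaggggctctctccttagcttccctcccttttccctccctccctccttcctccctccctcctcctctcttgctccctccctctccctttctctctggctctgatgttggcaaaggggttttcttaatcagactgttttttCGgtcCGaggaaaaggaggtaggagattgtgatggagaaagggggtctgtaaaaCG
Myf5: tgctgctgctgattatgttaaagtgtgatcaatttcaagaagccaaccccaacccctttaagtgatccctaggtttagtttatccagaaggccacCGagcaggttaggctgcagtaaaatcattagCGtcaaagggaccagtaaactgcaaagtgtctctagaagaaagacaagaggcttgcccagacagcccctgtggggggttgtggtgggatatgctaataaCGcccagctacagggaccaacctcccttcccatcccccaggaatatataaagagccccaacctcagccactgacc
Tbx6: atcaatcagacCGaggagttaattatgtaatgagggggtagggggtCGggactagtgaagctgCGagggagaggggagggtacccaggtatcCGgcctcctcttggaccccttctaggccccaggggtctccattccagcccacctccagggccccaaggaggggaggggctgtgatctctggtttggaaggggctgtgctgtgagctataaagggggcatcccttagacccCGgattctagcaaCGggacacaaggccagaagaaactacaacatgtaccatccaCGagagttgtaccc
Prrx1 and Tbx6 thus held nearly the same number of CG, and the first lay in a peak of 17171 bases while the second lay in none. This pair is not typical. Over all promoters, those in a peak held a median of 14 CG and those in none 6. For these genes the medians were 20 over the 35 windows in a peak and 4 over the 3 in none. Across the 34 genes with both a promoter sequence and an assigned peak, CG number and H3K27me3 per kb of peak in controls were nearly unrelated (Pearson r -0.08, Spearman rho -0.13, a description across genes that share the same libraries).

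H3K27me3 at these genes was broad and strong in both groups, and its level relative to all reads in peaks differed little between cKO and control retinas. Levels were scaled within the reads in peaks, so a change shared by all peaks would not be seen. Summed over all peaks of a gene, 1 of 52 genes was lower in cKO retinas, Eya1, and 0 were higher (edgeR quasi-likelihood test with Benjamini-Hochberg adjustment over all genes, adjusted p under 0.05). Over all 11324 genes tested, 939 were lower (8.29%) and 168 were higher (1.48%). With 1 call the share lower among these genes, 1.92%, rests on few genes, and it was 7.69%, against 8.7% of all genes, when control replicate 5 was left out. At an unadjusted p under 0.05, 6 were lower and 1 was higher, against 14.1% of all genes lower and 8.89% higher. In either direction, 11 of 52 (21.2%) had an unadjusted edgeR p under 0.05 in batch 1 alone, against 14% of all genes. Without control replicate 5 this number was 22 of 52, and the share over all genes was not counted for that setting. DESeq2 called Eya1 alone, against 7.68% lower and 0.292% higher of the 9252 genes to which it gave an adjusted p. Because retinas are mixtures, fewer cells with the mark and less of the mark per cell cannot be told apart. Per the labels' protocols the animals of a batch were littermates, so batch and litter cannot be told apart.

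The precision was high enough to bound the relative change of most of these genes. Standard errors of the log2 fold change, cKO over control, lay between 0.053 and 0.28 with a median of 0.064. The 95% interval lay wholly within 1.25-fold in either direction for 48 of the 52 genes and within 1.5-fold for 50. The exceptions at 1.25-fold were Eya1, Tbx20, Mesp2 and Tbx10, and at 1.5-fold Mesp2 and Tbx10. In simulated data of 11324 genes with these libraries, 66% of genes changed 1.5-fold and 94% of genes changed 2-fold were called. In control retinas all genes tested had a median level of 30.3 CPM (a unit explained below), against 793 CPM for these genes. The simulated rates therefore describe genes at large and do not give the rate for these 52 genes.

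Log2 fold changes of the 52 genes ran from -0.41 to 0.37 with a median of -0.047, against a median of 0.015 over all genes tested. With trimmed-mean (TMM) scaling 46 of 52 (88.5%) were below 0, against 46.8% of all genes, but the number below 0 was 19 with scaling to the total count, 14 with offsets for a trend with mean level (a setting chosen after seeing the data), 47 in batch 1 alone and 26 in batch 2 alone. It was also 39 when cKO replicate 1 was left out, and 35 when either control replicate 1 or control replicate 3 was.

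**Figure D1:**
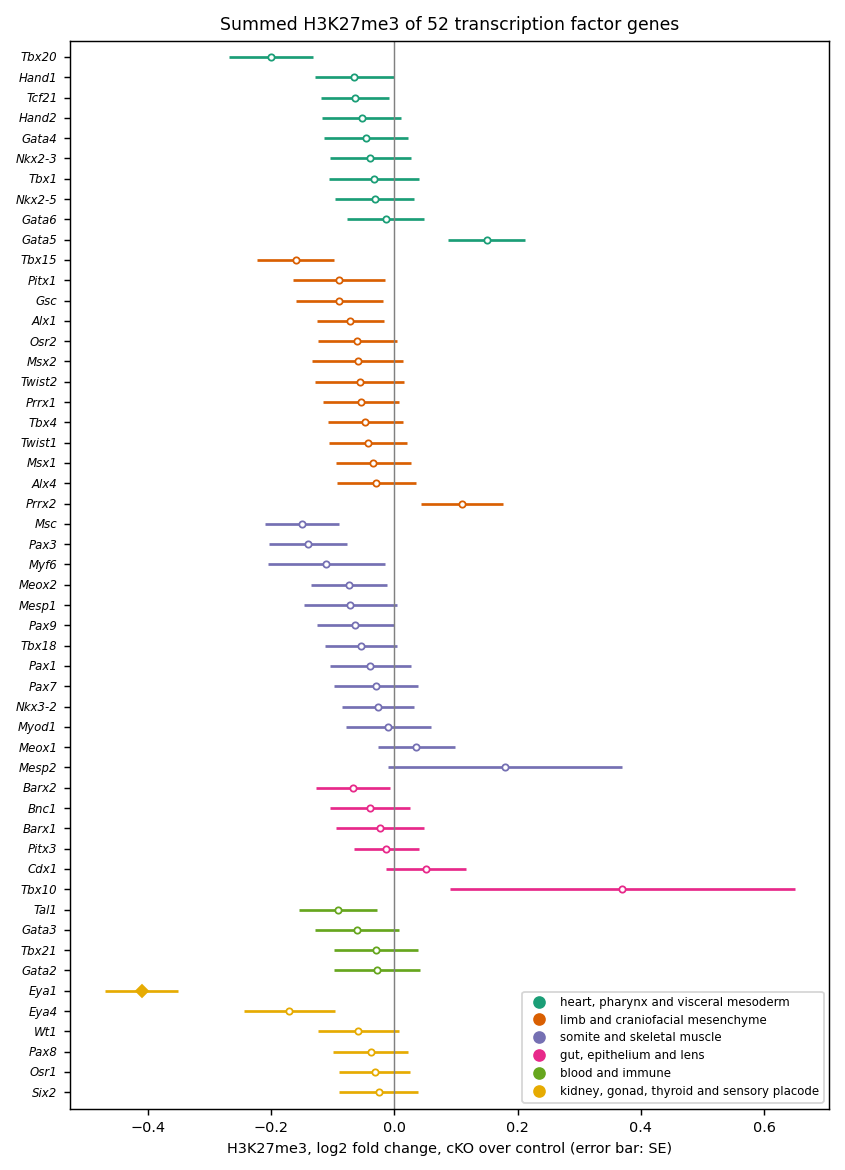
Log2 fold change of H3K27me3, cKO over control, with its standard error for the 52 genes that had a peak, grouped and coloured by lineage. The filled diamond is Eya1 (-0.41), the 1 gene with an adjusted p under 0.05, and the middle 50% of the genes lies between -0.068 and -0.029.

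The level of the mark is given below in CPM, reads for every 1000000 reads in peaks after TMM scaling, and per kb of peak where genes are compared with each other. An error after a log2 fold change is its SE, and one after a mean is the SD of 5 animals. In control animals the 52 genes held a median of 28.4 CPM per kb, against 6.18 over all genes tested. Their summed peaks covered a median of 22392 bases, against 4867, and were at least 10 kb wide for 84.6% of them, against 22.3% of all genes. Alx1 held the most per kb, 49.4 CPM per kb in cKO and 52 in control retinas. The least was held by Tbx10 in control retinas, 3.26 (4.12 in cKO), and by Mesp2 in cKO retinas, 4.03 (3.58 in control). Reads in peaks of these genes made up 4.23, 4.34, 4.17, 4.06 and 3.96% of all reads in peaks in cKO replicates 1 to 5, against 4.59, 4.28, 4.15, 4.00 and 3.78% in control replicates 1 to 5. The ranges of the groups overlapped, and both groups had their higher shares in batch 1.

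Values by animal are given in the order of replicates 1 to 5, of which the first 2 are batch 1. They cover each gene or peak that was called, and for each lineage the gene with the highest level per kb, the smallest p and the most peaks.

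Among the 6 genes of kidney, gonad, thyroid and sensory placodes, Eya1 fell and 0 were higher, with 2 lower and 0 higher at an unadjusted p under 0.05 (edgeR). Eya1 is a phosphatase and transcriptional co-activator that works with homeobox factors in kidney, ear and muscle, and its family was first described in the fly as eyes absent. Its summed H3K27me3 was 204, 204, 226, 225 and 222 CPM in cKO retinas, against 244, 293, 291, 324 and 283 CPM in control retinas. All cKO animals lay below all controls, with means of 216 ± 11.3 in cKO and 287 ± 28.6 in control retinas (SD, n = 5 each). This was a log2 fold change of -0.41 ± 0.06 (edgeR, adjusted p 1.7e-04), with -0.38 in batch 1 alone (adjusted p 0.214) and -0.42 in batch 2 alone (adjusted p 1.2e-04). Leaving out each animal in turn gave -0.44 to -0.37.

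Eya1 had a pair of assigned peaks in separate places, and the mark was lower at both. The peak at its promoter, chr1:14303330-14309870 (mm10), covered little of the gene, since peaks lay on 4.6% of the RefSeq gene body. That peak held 63.5, 59.1, 63.8, 67.2 and 66.2 CPM in cKO retinas, against 71.1, 94.8, 87.6, 105 and 89.8 CPM in control retinas, with no overlap. This was a log2 fold change of -0.48 ± 0.085 (edgeR, adjusted p 5.7e-04), with -0.43 in batch 1 alone and -0.53 in batch 2 alone. The other peak, chr1:14501540-14511820, was intergenic, 191 kb from the start, and Eya1 was the nearest coding gene. It held 145, 149, 163, 157 and 153 CPM in cKO retinas, against 177, 196, 202, 218 and 187 CPM in control retinas, again with no overlap. Here the log2 fold change came to -0.35 ± 0.064 (edgeR, adjusted p 7.7e-04), with -0.34 in batch 1 alone and -0.37 in batch 2 alone. This peak held most of the reads summed for Eya1, with means of 153 CPM in cKO and 196 CPM in control retinas. At its distance the link to Eya1 is the annotation's and was not tested. With only peaks within 10 kb of a start, the log2 fold change of Eya1 was -0.51 (edgeR, adjusted p 6.1e-04).

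The paralog Eya4, with 1 promoter peak, averaged 124 ± 7.81 CPM in cKO and 140 ± 20.2 CPM in control retinas (SD, n = 5 each), and its edgeR adjusted p was 0.177. Osr1, a zinc finger factor of intermediate mesoderm and kidney, held the most per kb of this lineage, with 952, 974, 918, 916 and 855 CPM in cKO retinas against 1052, 1016, 936, 906 and 818 CPM in control retinas. Six2, which maintains nephron progenitors, held 990, 1002, 1054, 988 and 923 CPM in cKO retinas, against 1138, 1064, 1030, 953 and 874 CPM in control retinas. In both genes the cKO animals were below the controls of batch 1 and overlapped with those of batch 2, and neither passed the test (edgeR adjusted p 0.798 for Osr1 and 0.863 for Six2). The others were Wt1, the Wilms tumour factor of kidney and gonad, with a log2 fold change of -0.058, and Pax8, of thyroid and kidney, with -0.038. Their edgeR adjusted p-values were 0.664 for Wt1 and 0.774 for Pax8.

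Among the 13 genes with peaks in the somite and skeletal muscle group, 0 sums were called by edgeR or DESeq2, and 2 were lower at an unadjusted p under 0.05, Msc and Pax3. Their log2 fold changes ran from -0.15 to 0.18. A single peak was nevertheless lower within Pax3 and within Pax7, paired box factors of the dorsal neural tube, neural crest and muscle progenitors.

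Pax3 was covered by a promoter domain of 94491 bases, another peak within the gene and 1 with too few reads to test, and peaks lay on 81.6% of its body. Its sum was 2658, 2708, 2672, 2527 and 2445 CPM in cKO retinas, against 3189, 3048, 2874, 2724 and 2505 CPM in control retinas. The cKO animals lay below the controls in batch 1 and overlapped with them in batch 2, and the log2 fold change of -0.14 ± 0.063 did not pass (edgeR, adjusted p 0.195). The peak within the gene, chr1:78117800-78126410, which the deposited annotation placed on an exon 70.4 kb from the start, did pass. It held 103, 104, 90.1, 99.9 and 86.3 CPM in cKO retinas, against 111, 139, 120, 119 and 106 CPM in control retinas, and the groups did not overlap. There the log2 fold change came to -0.30 ± 0.074 (edgeR, adjusted p 0.0103), with -0.27 in batch 1 alone and -0.34 in batch 2 alone, against -0.12 ± 0.069 for the promoter domain. The difference between the 2 peaks was not tested. Without a batch term the adjusted p of the lower peak was 0.0669, and without control replicate 5 that of the sum was 0.0195 (edgeR).

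Pax7 had 6 peaks, on 69.7% of its body. Its sum was 1544, 1700, 1704, 1585 and 1499 CPM in cKO retinas, against 1887, 1710, 1691, 1479 and 1456 CPM in control retinas, and the groups overlapped (log2 fold change -0.03 ± 0.068, edgeR, adjusted p 0.85). Its promoter domain of 73761 bases had a log2 fold change of 0.0011 ± 0.075. The peak farthest from the start, chr4:139751780-139758220, in an intron 74.8 kb away, was lower. That peak held 42.3, 50.7, 53, 53 and 48.1 CPM in cKO retinas, against 53.8, 61.1, 71.1, 68.9 and 64.2 CPM in control retinas, so the highest cKO animals came close to the lowest control without reaching it. The difference was -0.37 ± 0.083 on the log2 scale (edgeR, adjusted p 0.00536), with -0.30 in batch 1 alone and -0.42 in batch 2 alone. Without a batch term its edgeR adjusted p was 0.0596, and with the second technical duplicates alone it was 0.0958. The other 4 peaks in its introns did not pass, with log2 fold changes of -0.31, -0.089, -0.051 and 0.074.

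Msc, or musculin, a bHLH factor of head muscle, held 155, 158, 139, 154 and 157 CPM in cKO retinas, against 167, 187, 164, 174 and 153 CPM in control retinas. All but 1 control exceeded every cKO animal, and the log2 fold change of -0.15 ± 0.06 did not pass (edgeR, adjusted p 0.149). Meox2, a homeobox factor of somites and limb muscle, held the most per kb of the lineage, with 332, 364, 348, 376 and 337 CPM in cKO retinas against 387, 361, 375, 398 and 326 CPM in control retinas. The groups overlapped in both batches (edgeR adjusted p 0.539). The myogenic factors Myod1 and Myf6, which commit cells to skeletal muscle, averaged 236 ± 14.7 and 39.4 ± 2.73 CPM in cKO retinas, against 238 ± 30.3 and 42.5 ± 6.32 CPM in control retinas (SD, n = 5 each). Neither passed (edgeR adjusted p 0.96 for Myod1 and 0.536 for Myf6), and Myf5, next to Myf6 on the chromosome, had no peak on its body. Tbx6, of presomitic mesoderm, also had none. Mesp1 and Mesp2, of early mesoderm and somite borders, Pax1, Pax9 and Nkx3-2, of the sclerotome, Tbx18 and Meox1 completed the lineage, with log2 fold changes from -0.071 to 0.18.

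**Figure D2:**
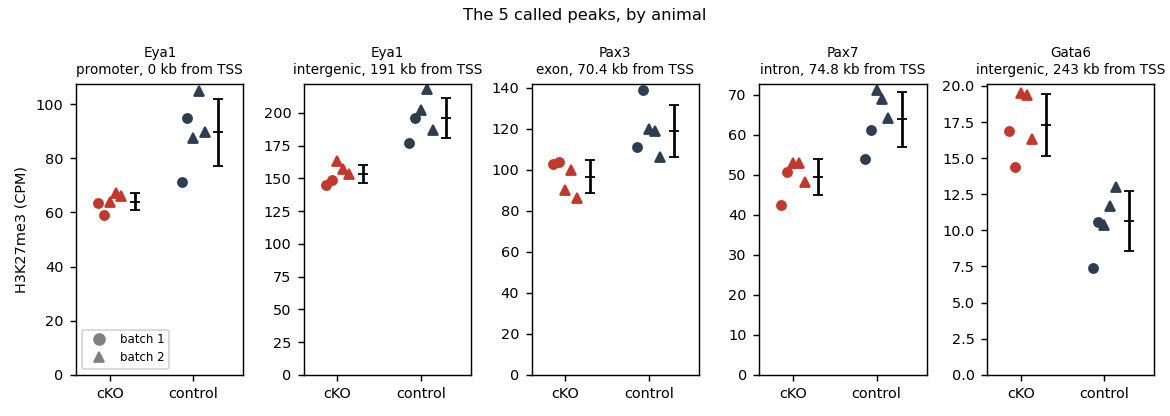
H3K27me3 in CPM of each animal for the 5 peaks with an adjusted p under 0.05, cKO left and control right, with circles for batch 1, triangles for batch 2 and bars for the mean and SD of 5 animals. In the peaks of Eya1, Pax3 and Pax7 all cKO animals lie below all controls, and in the peak assigned to Gata6 all lie above.

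Counted singly, 4 of the 79 peaks tested were lower and 1 was higher, against 1204 of 16307 peaks lower (7.38%) and 238 higher (1.46%) over the whole table. These shares are near or below the background. The 4 lower peaks are those of Eya1, Pax3 and Pax7, and all 5 called peaks also passed in batch 2 alone. In batch 1 alone, with 2 animals a group, they had the same signs and adjusted p-values from 0.266 to 0.473. DESeq2 called the 4 lower ones, against 6.34% lower and 0.186% higher of the 12391 peaks to which it gave an adjusted p, and gave the peak assigned to Gata6 an adjusted p of 0.0607.

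**Figure D3:**
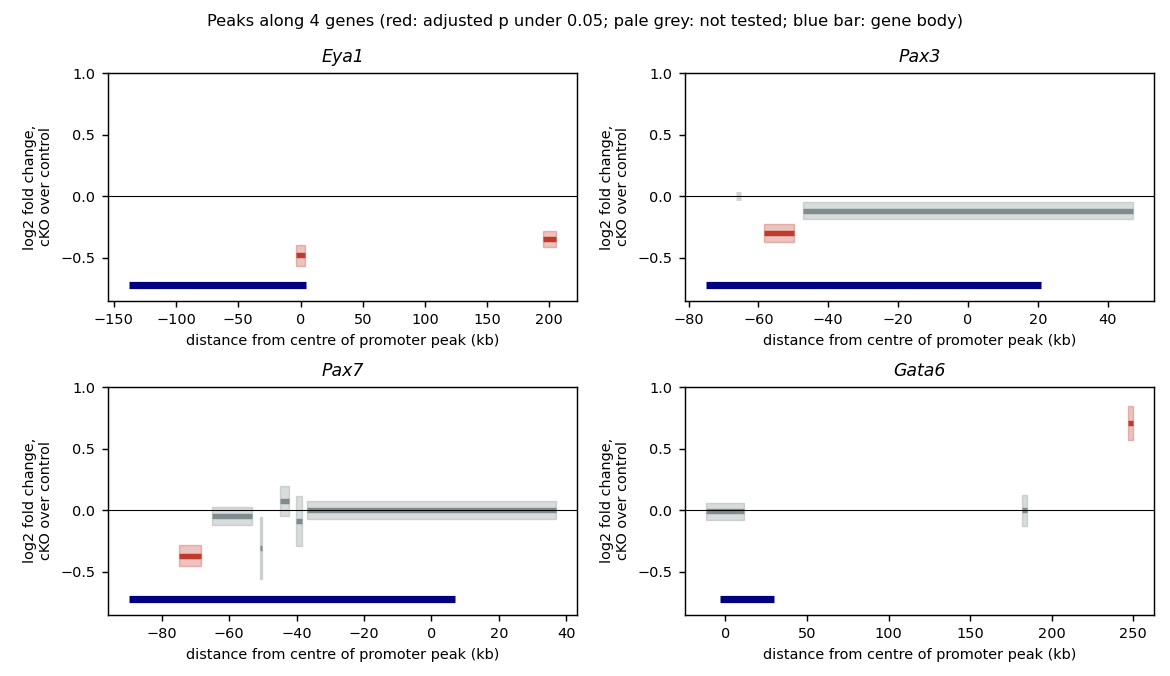
Log2 fold change, cKO over control, of each peak of Eya1, Pax3, Pax7 and Gata6 against the distance in kb from the centre of the promoter peak, with a shaded band of 1 SE and the gene body in blue. Red peaks have an adjusted p under 0.05; those of Pax3 (-0.30) and Pax7 (-0.37) lie inside the gene away from promoter domains at -0.12 and 0.0011, and that assigned to Gata6 (0.71) lies far outside the gene.

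Among the 10 genes of heart, pharynx and visceral mesoderm, 0 sums were called by edgeR or DESeq2, with 1 lower and 1 higher at an unadjusted p under 0.05 and log2 fold changes from -0.20 to 0.15. Gata6, a zinc finger factor of heart and endoderm, held 1003, 1027, 975, 910 and 901 CPM in cKO retinas, against 1099, 1087, 967, 925 and 801 CPM in control retinas. The groups overlapped (log2 fold change -0.014 ± 0.062, edgeR, adjusted p 0.928), and its promoter domain gave -0.01 ± 0.068. A small intergenic peak assigned to it, 243 kb from the start, was the 1 peak that rose. It held 16.9, 14.4, 19.5, 19.4 and 16.3 CPM in cKO retinas, against 7.41, 10.6, 10.4, 11.7 and 13 CPM in control retinas. All cKO animals lay above all controls, on 32, 29, 49, 44 and 35 reads in cKO and 15, 17, 29, 30 and 29 reads in control retinas. The difference was 0.71 ± 0.14 on the log2 scale (edgeR, adjusted p 0.00199), with 0.82 in batch 1 alone and 0.66 in batch 2 alone. Gata6 was the nearest coding gene, but at that distance the link to it is the annotation's and was not tested.

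Gata4, a cardiac factor related to Gata6, had 4 peaks and held 1801, 1856, 1733, 1674 and 1563 CPM in cKO retinas, against 2142, 1916, 1781, 1661 and 1449 CPM in control retinas. Its cKO animals were below the controls of batch 1 and inside their range in batch 2 (edgeR adjusted p 0.749). Gata5, another cardiac GATA factor, was looked at after its values were seen, since it was the 1 gene whose cKO animals lay above the controls in both batches before rounding, with 218, 226, 227, 214 and 237 CPM in cKO retinas against 218, 218, 205, 174 and 200 CPM in control retinas. Its log2 fold change of 0.15 ± 0.062 did not pass (edgeR, adjusted p 0.15), but it passed with scaling to the total count (adjusted p 0.0267) and with offsets for a trend with mean level (adjusted p 0.0413).

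Tbx20, a T-box factor of heart chambers, held the most per kb of its lineage, with 514, 568, 605, 604 and 545 CPM in cKO retinas against 697, 674, 687, 645 and 558 CPM in control retinas. The cKO animals were well below the controls in batch 1 and overlapped with them in batch 2. Its log2 fold change of -0.20 ± 0.068 did not pass (edgeR, adjusted p 0.0739), with -0.32 in batch 1 alone and -0.12 in batch 2 alone, and without control replicate 5 its adjusted p was 0.00484. It also passed with no filter on low counts, with sex as a term and with the trend offsets, at adjusted p-values of 0.0461, 0.0213 and 0.0188. The remaining genes, Hand1 and Hand2 of the cardiac ventricles, Nkx2-5 of the early heart, Nkx2-3 of gut and spleen mesoderm, Tcf21 of the epicardium and Tbx1 of the pharynx, lay between -0.065 and -0.032 on the log2 scale, each within 1.25-fold of no change.

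Among the 13 genes of limb and craniofacial mesenchyme, 0 sums were called by edgeR or DESeq2, with 1 lower and 0 higher at an unadjusted p under 0.05 and log2 fold changes from -0.16 to 0.11. Tbx15, a T-box factor of limb and skin mesenchyme, had the smallest p, with 1743, 1802, 1780, 1706 and 1614 CPM in cKO retinas against 2112, 2030, 1996, 1874 and 1672 CPM in control retinas. The cKO animals were below the controls in batch 1, overlapped with them in batch 2 and did not differ past the threshold (log2 fold change -0.16 ± 0.062, edgeR, adjusted p 0.119), and the adjusted p was 0.00655 without control replicate 5 and 0.0252 with the trend offsets. Alx1, a homeobox factor of the facial mesenchyme, held 838, 875, 815, 813 and 792 CPM in cKO retinas, against 944, 934, 870, 836 and 763 CPM in control retinas (edgeR adjusted p 0.495). Pitx1, which specifies the hindlimb, had 4 peaks and held 735, 781, 797, 756 and 663 CPM in cKO retinas, against 906, 845, 849, 735 and 649 CPM in control retinas (edgeR adjusted p 0.526). Both overlapped between groups in batch 2. The muscle segment homeobox genes Msx1 and Msx2, the mesenchymal bHLH genes Twist1 and Twist2, Prrx1 of limb bud mesenchyme, Osr2 of the palate, Alx4 of skull and limb, Gsc of the organizer and jaw, and Tbx4 of the hindlimb lay between -0.089 and -0.029, and Prrx2 was at 0.11 (edgeR adjusted p 0.364).

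In the group of gut, epithelium and lens, 0 of 6 genes were called by edgeR or DESeq2 and 0 had an unadjusted p under 0.05. Barx2, a homeobox factor of epithelia and muscle, held the most per kb, with 524, 555, 502, 480 and 475 CPM in cKO retinas against 610, 568, 540, 499 and 444 CPM in control retinas (edgeR adjusted p 0.561). Pitx3, needed for the lens and for midbrain dopamine neurons, held 395, 417, 390, 398 and 375 CPM in cKO retinas, against 435, 429, 378, 388 and 366 CPM in control retinas (edgeR adjusted p 0.92). In both genes the groups were apart in batch 1 and overlapped in batch 2. Tbx10 held 7.24, 3.41, 6.77, 4.45 and 9.46 CPM in cKO retinas, against 4.87, 5.66, 2.53, 6.25 and 5.5 CPM in control retinas, too few reads for a close estimate (log2 fold change 0.37 ± 0.28, edgeR, adjusted p 0.485). Barx1 of the stomach, Cdx1 of the intestine and Bnc1 of epidermis and germ cells lay between -0.04 and 0.052 on the log2 scale.

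In the blood and immune group, 0 of 4 genes were called by edgeR or DESeq2 and 0 had an unadjusted p under 0.05. Tal1, which founds the blood lineage, held 820, 840, 765, 775 and 673 CPM in cKO retinas, against 951, 874, 839, 767 and 702 CPM in control retinas (edgeR adjusted p 0.43). Gata3, a regulator of T cells, held 1214, 1283, 1205, 1125 and 1114 CPM in cKO retinas, against 1419, 1416, 1253, 1160 and 984 CPM in control retinas (edgeR adjusted p 0.657). Both were below the controls in batch 1 and overlapped with them in batch 2. Tbx21, or T-bet, of type 1 helper T cells, held 162, 193, 172, 172 and 162 CPM in cKO retinas, against 189, 176, 190, 170 and 152 CPM in control retinas, with overlap in both batches (edgeR adjusted p 0.854). Gata2, of blood stem cells, had a log2 fold change of -0.028 ± 0.07.

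The 4 genes with no peak of their own differed in what lay over them. Peaks assigned to neighbouring genes covered the whole RefSeq bodies of Cdx2, an intestinal homeobox factor, and Lyl1, a bHLH relative of Tal1. The peak over Cdx2, chr5:147257850-147330600, was assigned to Pdx1 and averaged 1865 ± 167 CPM in cKO and 1898 ± 267 CPM in control retinas (SD, n = 5 each). This gave a log2 fold change of -0.021 ± 0.07 (edgeR, adjusted p 0.906). The peak over Lyl1, chr8:84700780-84721630, was assigned to Nfix and averaged 357 ± 60.7 CPM in cKO and 328 ± 67.1 CPM in control retinas, with a log2 fold change of 0.13 ± 0.062 (edgeR, adjusted p 0.239). Reads over these 2 genes are therefore not in the counts above. No peak of the table touched the bodies of Myf5 and Tbx6.

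The number of peaks below 0 was counted by place and by width, and it depended on the scaling and on the batch. Of 53 promoter peaks tested, 46 were below 0 with TMM scaling, but 18 were with scaling to the total count and 17 with offsets for a trend with mean level. Of 14 intergenic peaks 4 were below 0 with TMM scaling, and 3 and 6 were under those settings. The medians with TMM scaling were -0.034 for promoter and 0.11 for intergenic peaks, and with the total count they were 0.012 and 0.15. In batch 1 alone 49 of 52 promoter and 6 of 14 intergenic peaks were below 0. In batch 2 alone 25 of 53 and 4 of 14 were. Of 44 peaks at least 10 kb wide, 42 were below 0 with TMM scaling, with a median of -0.04. The number was 15 with the total count, 14 with the trend offsets, 44 in batch 1 alone and 22 in batch 2 alone. Of 35 narrower peaks 15 were below 0 with TMM scaling, with a median of 0.026, while 12 were with the total count and 16 with the trend offsets. Of these narrower peaks 16 of 31 were below 0 in batch 1 alone and 14 of 35 in batch 2 alone. The shares of wide and narrow peaks below 0 were thus close with the total count, and with the trend offsets the narrow peaks had the higher share. Over all peaks of the table with TMM scaling the shares below 0 were 55.2% of the wide and 44.3% of the narrow peaks, with medians of -0.015 and 0.032. These are descriptions with no test. The 5 called peaks were 3081 to 10281 bases wide.

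**Figure D4:**
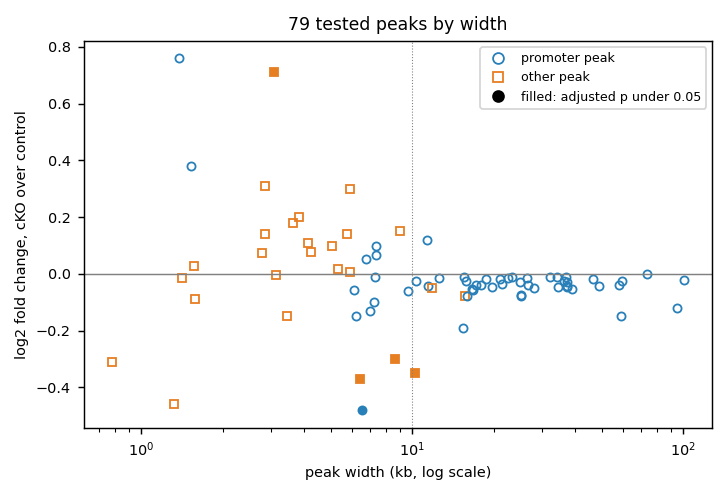
Log2 fold change, cKO over control, against peak width in kb on a log axis for the 79 peaks tested, with circles for promoter peaks, squares for others and filled symbols for an adjusted p under 0.05. With the TMM scaling shown, wide promoter domains lie in a narrow band just under 0 (18 of 53 promoter peaks are below 0 with the total count and 17 with the trend offsets, so the side of 0 depends on the scaling), and the 5 called peaks, 3081 to 10281 bases wide, lie outside that band.

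Batches differed in how the groups lay. In batch 1, the 2 cKO animals were below the 2 controls for 40 of the 52 genes and above them for 2, against 27.7% of all genes below and 25.8% above. In batch 2 the 3 cKO animals were below the 3 controls for 1, Eya1, and above them for 3, against 12% of all genes below and 9.17% above. In both batches together cKO animals were below controls for 1 gene (Eya1) and above for 1 (Gata5), against 8.16% of all genes below and 4.12% above. A test of the genotype effect between batches called 0 of the 52 genes, with 0 at an unadjusted p under 0.05, and 1 of 11574 genes over the whole table (0.00864%). Taking each animal's median difference from the control mean of its batch, the genes stood at -0.15, -0.10, 0.054, 0.019 and -0.048 in cKO retinas, against 0.045, -0.045, 0.12, 0.024 and -0.14 in control retinas, on a log2 scale. Control replicate 5 was nearly as low as cKO replicate 1, and the groups overlapped when the batches were pooled. In batch 1 both cKO animals lay below both controls. Each control was part of the mean it was set against. Over all genes tested no animal was farther than 0.021 from 0, but TMM scaling holds these medians near 0.

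**Figure D5:**
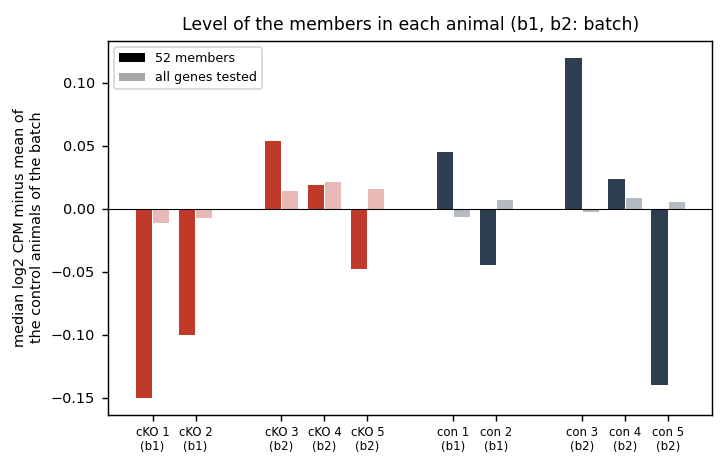
Median over the 52 genes (dark bars) and over all genes tested (pale bars) of log2 CPM minus the mean of the control animals of the batch, for each cKO animal on the left and each control (con) on the right. Dark bars of both groups lie on either side of 0, from -0.15 to 0.12, and pale bars stay near 0, where TMM scaling holds them.

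Relatives that were not in the list were read for comparison, most of them from the same families, with Mef2c, Foxc1 and Foxc2 from other families. Their split by role is rough, since Ptf1a, placed with mainly other roles, was also used as a marker of amacrine and horizontal cells. Of 8 with a role in eye or retina, such as Pax6, Pax2 and Tbx5, 6 were tested and 0 were called by edgeR or DESeq2, with 1 lower at an unadjusted p under 0.05 (Tbx3). Of 39 with mainly other roles, 34 were tested, 4 were lower and 0 were higher by edgeR, with 5 lower and 0 higher at an unadjusted p under 0.05. Set beside the 8.29% and 14.1% of all genes lower, 4 of 34 (11.8%) is near the background. DESeq2 called 3 lower, all but Msgn1, and 0 higher. Eya2, a paralog of Eya1, averaged 113 ± 23.5 CPM in cKO and 140 ± 19.6 CPM in control retinas (SD, n = 5 each), with a log2 fold change of -0.31 and an edgeR adjusted p of 0.0147. The other 3 were Mef2c, of muscle and vessels, at -0.26 (edgeR adjusted p 0.00561), Bnc2, a paralog of Bnc1, at -0.22 (edgeR adjusted p 0.0129), and Msgn1, of presomitic mesoderm, at -0.67 on 7.53 ± 1.7 CPM in cKO and 12 ± 2.06 CPM in control retinas (edgeR adjusted p 0.0241).

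As a check of the tissue, of 8 retinal progenitor genes Rax, Six3, Six6 and Sox2 had no peak. The list summed to 120 to 152 CPM in cKO and 145 to 186 CPM in control retinas. All 5 marker genes of periocular mesenchyme, which surrounds the eye and uses several of the genes above, carried peaks. They summed to 3369 to 4059 CPM in cKO and 3024 to 4461 CPM in control retinas. Genes of retinal neurons were marked as heavily. All 5 ganglion cell genes had peaks, summing to 3350 to 3561 CPM in cKO and 3249 to 4165 CPM in control retinas. So did all 5 amacrine and horizontal genes, with 4802 to 5206 CPM in cKO and 4547 to 5673 CPM in control retinas. These levels therefore do not separate retinal from other cells. Peaks lay at 4 of 5 photoreceptor precursor genes, 2 of 4 pigment epithelium genes, 1 of 5 endothelial genes, 3 of 5 myeloid and blood genes and 2 of 4 lens genes. The markers called lower by edgeR were Atoh7 (log2 fold change -0.77), Rbpms (-0.53), Otx2 (-0.33), Lhx2 (-0.26) and Mitf (-0.19). The part of other cell types in the differences at Eya1, Pax3, Pax7 and Gata6 was not tested.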

How the data were processed

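H3K27me3 CUT&RUN reads of the retinas of 10 mouse embryos, 5 cKO and 5 control, were analysed as deposited. The authors' table gives counts per peak for 16 H3K27me3 libraries, while how reads were counted and on which libraries peaks were called is not stated in the labels or header. The submitters' processing notes name the build mm10 and, with no role, DESeq2 1.38.1, MACS2, Novoalign 4.02.02 and SAMtools. Peak positions, assigned genes and distances from a transcription start are those of the deposited annotation. The table also holds, per the file headers, the authors' mean signal, log2 fold change with its SE, test score and p-values for a contrast that is not named, and these were not used. Libraries made with IgG, 6 in all, were not used here.

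The 6 pairs of technical duplicates of batch 2 agreed within counting noise, at 0.866 to 0.956 chi-square per degree of freedom (1.04 to 2.39 between animals of a group and batch), and were summed to 1 sample an animal. Reads in peaks ranged over animals between 1688368 and 2864080. Peaks of the same assigned gene were added up. Features were filtered with filterByExpr, scaled with TMM factors and tested with edgeR 4.0.16 (glmQLFit and glmQLFTest, R 4.3.3), with batch as a term and Benjamini-Hochberg adjustment over all genes or peaks. SE is the size of the log2 fold change divided by the square root of F. CPM are reads for every 1000000 reads in peaks, with library size multiplied by the TMM factor. Intervals of 95% used the t quantile at the model's total degrees of freedom. DESeq2 1.42.0, other scalings, filters and terms, each batch, each duplicate and leaving out each animal were alternatives. The steps were tested on simulated data, where 8 of 168 calls over 11324 genes were false. RefSeq tables gave gene bodies and promoters. Plots were made in Python 3.11.15 with matplotlib 3.10.9.

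The members, their lineages and the lists of relatives and markers were chosen with earlier results of these data known. Genes with values by animal were those called, those with a called peak, and per lineage the gene with the highest level per kb, the smallest p and the most peaks. Gata5 was added after its values were seen.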

Additional observations from a re-analysis of the deposited data

Results flagged for a closer look

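In the 48 groups of 5 animals examined for the named genes and peaks, 1 value stood far from the others of its group: the summed H3K27me3 of Msc in cKO replicate 3, at 139 CPM, while the other cKO animals lay between 154 and 158 CPM. About 1 in 20 groups is marked by chance under this criterion. Without cKO replicate 3 Msc still did not pass the edgeR test.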

How the results depend on the processing

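The median of the member genes moved from its -0.047 by less than the SD between animals in all 23 alternatives, but its sign turned with the total count (0.012), with trend offsets (0.018) and in batch 2 alone (0.00077), and leaving out each animal it ran from -0.093 to -0.0095. No named call reversed. Eya1 stayed called in all but batch 1 alone (-0.38, adjusted p 0.214). Of all genes 1107 were called, with 267 without the batch term, 0 in batch 1 alone, 603 with peaks within 10 kb of a start only, and 837 to 1249 leaving out each animal. Of all peaks 1442 were called, with 809 by DESeq2, 364 without the batch term, 0 in batch 1 alone (where 1827 of 15068 peaks and 1508 of 10799 genes, or 12.1% and 14%, had an unadjusted edgeR p under 0.05), and 1088 to 1615 leaving out each animal. Lower calls made up 84.8% of genes and 83.5% of peaks called, against 61.9% and 68.9% with the total count and 96.3% and 97.2% with DESeq2. The cause of these differences was not tested.

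The number of member genes called lower, 1, was 2 without a filter and with sex as a term (Eya1 and Tbx20), 3 with trend offsets (also Tbx15), an alternative chosen after seeing the data, 0 in batch 1 alone, and 1 to 4 leaving out each animal, with 4 without control replicate 5 (Eya1, Pax3, Tbx15 and Tbx20). The number called higher, 0, was 1 (Gata5) with the total count and with trend offsets, and 0 leaving out each animal. In batch 1 alone 11 of 52 member genes (21.2%) had an unadjusted edgeR p under 0.05, against 14% of all genes, and without control replicate 5 it was 22. Member peaks called lower, 4, were 2 without the batch term, 0 in batch 1 alone, and 4 to 8 leaving out each animal, with 8 without control replicate 5. Member peaks called higher, 1, were 0 with DESeq2 and in batch 1 alone, and 1 to 2 leaving out each animal. Without the batch term the called peaks of Pax3 and Pax7 had adjusted p 0.0669 and 0.0596, and with the second duplicates alone that of Pax7 had 0.0958.

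Uncalled sums whose sign turned were, with the total count, Gata6 0.046, Pax7 0.029, Gata4 0.013, Pitx3 0.045, Tbx21 0.03, Osr1 0.027 and Six2 0.034. In batch 2 alone they were Gata6 0.04, Pax7 0.042, Gata4 0.015, Pitx3 0.03, Gata3 0.012, Osr1 0.0067 and Six2 0.046. With the first duplicates Gata6 was 0.021, and with the second Pitx3 was 0.015 and Tbx21 0.012. With trend offsets they were Gata6 0.06, Pax7 0.051, Gata4 0.038, Alx1 0.00026, Pitx3 0.043, Gata3 0.018, Tbx21 0.0085, Osr1 0.04 and Six2 0.049. Leaving out each animal, log2 fold changes ran from -0.063 to 0.014 for Gata6, -0.067 to 0.015 for Pax7, -0.03 to 0.011 for Pitx3, -0.072 to 0.023 for Tbx21 and -0.067 to 0.012 for Six2.

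Same-numbered cKO and control animals correlated at 0.12, -0.088, 0.26, 0.22 and 0.19 in their deviations from the group means, and at -0.46, -0.46, 0.11, 0.029 and 0.04 in those from the means of group and batch. Of the 5 cKO animals 3 correlated best with their own number. Pairing was to be taken only if every correlation exceeded 0.1, and replicate 2 did not. With a replicate block 4 member genes were called lower (Eya1, Pax3, Tbx15 and Tbx20).

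With these read numbers, genes such as Tbx10 and Mesp2 and peaks such as the intergenic one of Gata6 are estimated loosely.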
